A study of Mus musculus with 6 samples.

Results

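The fibrillar collagens are the secreted proteins that assemble into the banded fibres of connective tissue, and 10 of their genes were followed here: Col1a1, Col1a2, Col2a1, Col3a1, Col5a1, Col5a2, Col5a3, Col11a1, Col11a2 and Col27a1. They were taken by name from a table of 25978 genes whose Ensembl identifiers were matched to mouse symbols, and all 10 were present. The members and the gene lists below were chosen with earlier results of these data known. Their shares of called genes are therefore not those of a blind choice. RNA had been sequenced from cells of primary pancreatic tumours of KPCY mice, aged 5 to 7 weeks and of C57BL/6 background. Both groups carried the same alleles, among them Pdx1-Cre, Trp53fl/fl and Rosa26LSL-YFP, so that Cre expressed in the pancreatic lineage switches on a yellow fluorescent protein (YFP) and deletes Trp53. YFP-positive cells were sorted by the epithelial surface protein EpCAM into EpCAM+ and EpCAM- cells, with 3 libraries per group. Pdx1-Cre also marks normal pancreas, so YFP does not by itself mark a tumour cell, and whether the libraries came from different animals is not stated in the labels, and the p-values below measure only how these libraries spread. The comparison asks how YFP-positive cells that lack surface EpCAM differ from those that carry it.

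Fibrillar collagens are made as procollagens, in which chains with a long run of glycine-led repeats wind into a triple helix. The chains are hydroxylated and folded in the endoplasmic reticulum, exported, trimmed of their propeptides outside the cell and cross-linked into fibrils. Type I (Col1a1 and Col1a2) and type III (Col3a1) form the bulk of interstitial fibrils, type V (Col5a1, Col5a2, Col5a3) and type XI (Col11a1, Col11a2) help to start fibrils and limit their width, and type II (Col2a1) is the main collagen of cartilage. Type XXVII (Col27a1) is a later described member with a shorter helix, known from cartilage and developing epithelia. In pancreatic cancer, fibrillar collagen is a large part of the dense stroma and is commonly credited to fibroblasts and stellate cells.

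EpCAM- libraries had far more RNA of 8 of the 10 genes than EpCAM+ libraries, and less of Col11a2. The call was limma's linear model test across all 15783 genes with enough signal, at a false discovery rate of 0.05 by the Benjamini-Hochberg adjustment. By this call 8 members rose (80% of the members, against 20.3% of all tested genes), 1 fell (10% against 23.1%) and 1, Col27a1, did not pass, where 43.4% of all tested genes changed in either direction. The log2 fold changes of the rising genes, EpCAM- minus EpCAM+, lay between 3.00 for Col5a3 and 5.61 for Col3a1. No library of one group reached the range of the other for the 8 rising members and for Col11a2, where 27.1% of all tested genes were higher and 29.2% lower without overlap, 56.3% in either direction. The median log2 fold change was 4.61 over the members and 0.00429 over all tested genes. These were sorted bulk samples, in which fewer cells of a type and less RNA per cell cannot be told apart. All 10 genes passed the filter on low values.

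**Figure D1:**
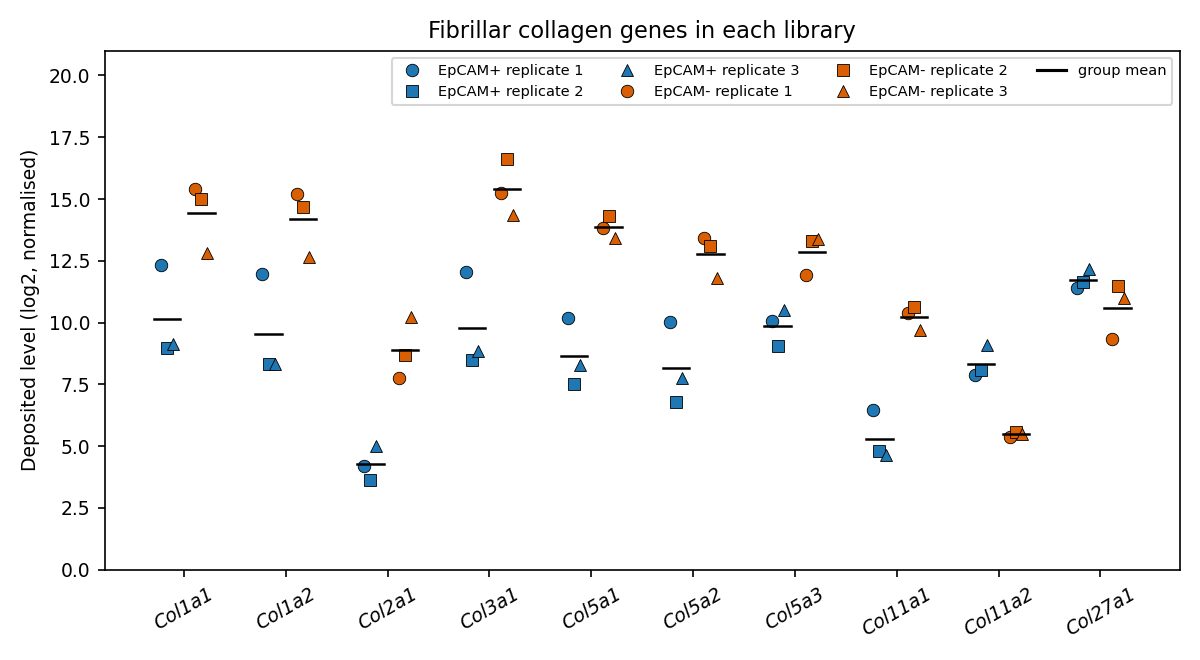
Deposited level (log2, vertical axis) of each fibrillar collagen gene (horizontal axis) in the 3 EpCAM+ libraries (blue) and the 3 EpCAM- libraries (orange), with marker shapes for replicates and black bars for group means. Col3a1 reached 16.60 in EpCAM- replicate 2, EpCAM+ replicate 1 stood above the other EpCAM+ libraries for Col1a1, Col1a2, Col3a1, Col5a1, Col5a2 and Col11a1, and Col11a2 and Col27a1 had lower means in EpCAM- libraries.

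The promoter stretches of 4 members are shown because the members did not move together: Col1a2, Col3a1 and Col11a1 rose and Col11a2 fell. RefSeq's GRCm38.p6 table held a promoter entry for 7 of the 10 members. Each stretch below is the 250 bases before the start annotated by RefSeq, which for Col1a2 and Col11a2 differs from the GENCODE gene start given later, on the strand of the gene (plus for all 4), at chr6:4505368-4505617 for Col1a2, chr1:45311288-45311537 for Col3a1, chr3:114030290-114030539 for Col11a1 and chr17:34038888-34039137 for Col11a2. Capitals mark the CCAAT box (CCAAT, or ATTGG on the other strand) and the TATA box (TATAAA, or TTTATA on the other strand).
Col1a2: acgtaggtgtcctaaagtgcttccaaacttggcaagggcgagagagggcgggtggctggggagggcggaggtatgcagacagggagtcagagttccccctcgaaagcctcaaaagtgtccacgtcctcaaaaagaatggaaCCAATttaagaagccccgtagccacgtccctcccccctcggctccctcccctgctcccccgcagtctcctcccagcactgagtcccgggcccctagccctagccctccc
Col3a1: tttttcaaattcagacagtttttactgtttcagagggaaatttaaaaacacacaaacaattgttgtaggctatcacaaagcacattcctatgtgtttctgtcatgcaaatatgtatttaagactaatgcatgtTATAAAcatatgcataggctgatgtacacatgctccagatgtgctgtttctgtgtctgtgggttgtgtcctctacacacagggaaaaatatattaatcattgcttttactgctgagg
Col11a1: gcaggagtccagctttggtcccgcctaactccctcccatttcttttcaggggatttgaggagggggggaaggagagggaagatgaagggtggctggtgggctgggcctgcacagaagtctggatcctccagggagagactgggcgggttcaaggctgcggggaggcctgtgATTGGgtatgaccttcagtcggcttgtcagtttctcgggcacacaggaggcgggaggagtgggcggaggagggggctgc
Col11a2: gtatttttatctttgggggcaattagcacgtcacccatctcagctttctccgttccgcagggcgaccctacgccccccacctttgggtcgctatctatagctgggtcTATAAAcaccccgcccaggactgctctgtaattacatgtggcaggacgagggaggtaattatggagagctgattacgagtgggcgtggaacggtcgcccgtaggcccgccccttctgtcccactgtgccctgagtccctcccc

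A CCAAT box was present in the stretches of Col1a2, Col5a3 and Col11a1, which rose, and in 33.8% of the 32851 stretches of this length in the table. It was absent from those of Col3a1 and Col5a1, which also rose, and from those of Col11a2 and Col27a1, which did not. A TATA box was present in those of Col3a1 and Col11a2, which moved in opposite directions, and in 12.4% of all stretches. Both lay more than 100 bases before RefSeq's start. The GC box (GGGCGG, or CCGCCC on the other strand) was found in every member's stretch except that of Col3a1, against 32.7% of all stretches. The E-box, searched as CAGGTG and, for the other strand, as CACCTG, is a sequence known to be bound by Snail and Zeb factors. It was in none of the 7 stretches and in 17.2% of all. The guanine and cytosine content ran from 35.2% for Col3a1 to 76.4% for Col5a1, with the other 5 between 57.6% and 62.8%. These matches are letters in a window and show no binding.

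The type I and type III genes had the widest spread of the members among EpCAM+ libraries. Col1a1 (ENSMUSG00000001506, GRCm38 chromosome 11, 94936224 to 94953042, plus strand) stood at log2 levels of 12.33, 8.96 and 9.14 in EpCAM+ replicates 1, 2 and 3, against 15.42, 15.02 and 12.83 in EpCAM- replicates 1, 2 and 3. Its highest EpCAM+ library was thus only 0.50 below its lowest EpCAM- library. The difference between groups was 4.27 ± 1.03 (SE), a 19.4-fold rise, with an adjusted p of 0.0142. Col1a2 (chromosome 6, 4504814 to 4541544, plus strand), whose promoter stretch is the first shown above, followed much the same order, with 11.95, 8.33 and 8.33 in EpCAM+ and 15.22, 14.69 and 12.64 in EpCAM- replicates 1, 2 and 3. It rose by 4.65 ± 1.09 (SE, adjusted p = 0.0128), and its groups were 0.69 apart at the nearest libraries. Without EpCAM+ replicate 3, Col1a1 (adjusted p = 0.0574) and Col1a2 (adjusted p = 0.0518) no longer passed, although their log2 fold changes were still 3.77 and 4.04. Over the 14 alternatives other than leaving out a chosen pair of libraries, the adjusted p of Col1a1 lay between 0.00281 and 0.0574 and that of Col1a2 between 0.00184 and 0.0518.

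Col3a1 (chromosome 1, 45311538 to 45349706, plus strand) encodes the single chain of type III collagen, which co-assembles with type I in pliable tissues. Its levels were 12.05, 8.47 and 8.86 in EpCAM+ and 15.24, 16.60 and 14.36 in EpCAM- replicates 1, 2 and 3. EpCAM+ replicate 1 again stood highest of its group, but here EpCAM- replicate 2 and not replicate 1 was the highest library. The rise of 5.61 ± 0.99 (SE, adjusted p = 0.00387) was 48.8-fold.

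EpCAM+ replicate 1 and EpCAM- replicate 3 had the least extreme levels of these 3 genes. The mean log2 level of Col1a1, Col1a2 and Col3a1 was 12.11 in EpCAM+ replicate 1 against 8.59 and 8.78 in replicates 2 and 3, and 13.27 in EpCAM- replicate 3 against 15.29 and 15.44 in replicates 1 and 2. With those libraries left out together, the log2 fold changes were 6.16 for Col1a1, 6.63 for Col1a2 and 7.26 for Col3a1. The libraries were chosen for lying nearest the other group in these genes, so that larger values follow from the choice and support nothing. The SD of Col1a1, Col1a2 and Col3a1 among EpCAM+ libraries was 1.89, 2.09 and 1.97, larger than that of at least 99.8% of all tested genes, whose median SD was 0.163.

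**Figure D2:**
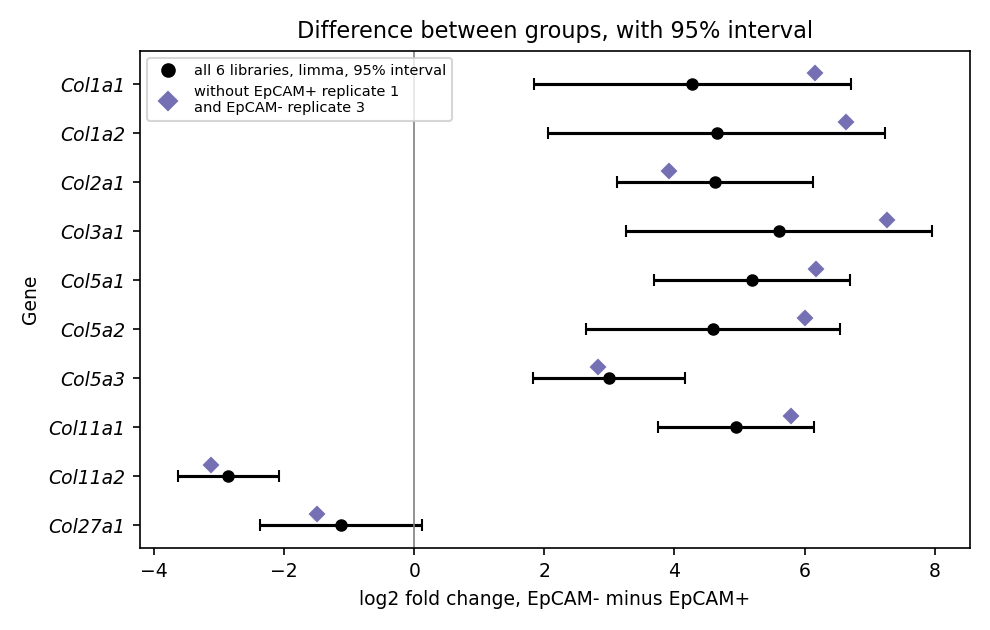
Log2 fold change, EpCAM- minus EpCAM+ (horizontal axis), of each gene (vertical axis) with its 95% interval from limma over all 6 libraries (black) and the value without EpCAM+ replicate 1 and EpCAM- replicate 3 (purple diamonds), libraries chosen for lying nearest the other group in the type I and III genes. The intervals of 8 genes lie above 0, that of Col11a2 lies below 0, and that of Col27a1, from -2.37 to 0.11, includes 0.

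Type V chains rose with narrower spread in EpCAM- libraries than type I chains. Col5a1 (chromosome 2, 27886425 to 28039514, plus strand), the chain found in most type V molecules, stood at 10.17, 7.50 and 8.29 in EpCAM+ and 13.83, 14.30 and 13.41 in EpCAM- replicates 1, 2 and 3. The gap of 3.23 between the nearest libraries was, with that of Col11a1, the widest of the 10 genes, and the rise was 5.19 ± 0.64 (SE, adjusted p = 0.000706). The genes 2810430I11Rik and Gm13372 overlap Col5a1 on the other strand, as Gm26274 does Col5a3, and whether the counting used strand was not given in the sources used here. On the same strand, Gm43921 overlaps Col1a2, Gm47302 overlaps Col3a1 and Gm38211 overlaps Col5a2. How reads from overlapping genes were assigned was not given either. Col5a2 (chromosome 1, 45374321 to 45503282, minus strand) had 10.02, 6.78 and 7.75 in EpCAM+ and 13.44, 13.09 and 11.79 in EpCAM- replicates 1, 2 and 3, and rose by 4.59 ± 0.83 (SE, adjusted p = 0.00410). Its order of libraries was that of Col1a1 except that the EpCAM+ replicates 2 and 3 lay further apart. Col5a2 and Col3a1 are neighbours on chromosome 1, transcribed towards each other with 24614 bases between them.

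Col5a3 (chromosome 9, 20770050 to 20815067, minus strand) encodes a chain of a less widespread form of type V collagen. It stood at 10.05, 9.05 and 10.52 in EpCAM+ and 11.93, 13.31 and 13.38 in EpCAM- replicates 1, 2 and 3. Its EpCAM- order was the reverse of that of Col1a1, with replicate 1 lowest and replicate 3 highest. The rise of 3.00 ± 0.49 (SE, adjusted p = 0.00278) was 7.98-fold, the smallest of the 8.

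Among the type XI and type II genes, Col11a1 and Col2a1 rose and Col11a2 fell. Col11a1 (chromosome 3, 114030540 to 114220718, plus strand), often reported in tumour stroma, had 6.46, 4.79 and 4.64 in EpCAM+ and 10.38, 10.64 and 9.70 in EpCAM- replicates 1, 2 and 3. It rose by 4.94 ± 0.51 (SE, adjusted p = 0.000311), the smallest adjusted p among the members. Col11a2 (chromosome 17, 34039437 to 34066685, plus strand), whose product can join that of Col11a1 in cartilage type XI collagen, had 7.86, 8.06 and 9.10 in EpCAM+ but 5.35, 5.57 and 5.51 in EpCAM- replicates 1, 2 and 3. It fell by 2.86 ± 0.33 (SE, adjusted p = 0.000540), and this is the gene whose promoter stretch closes the set above. The SD of 0.113 among its EpCAM- libraries is the smallest of any member, and whether the unknown log transform narrows values at such levels was not tested.

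Col2a1 (chromosome 15, 97975602 to 98004695, minus strand) had 4.19, 3.61 and 4.99 in EpCAM+ and 7.77, 8.67 and 10.21 in EpCAM- replicates 1, 2 and 3. It rose by 4.62 ± 0.64 (SE, adjusted p = 0.00125), and EpCAM- replicate 3, the lowest library of its group for Col1a1, Col1a2, Col3a1, Col5a1, Col5a2 and Col11a1, was the highest for Col2a1. Of 7 cartilage markers, 6 were in the table and only the proteoglycan gene Acan had enough signal to test. Acan stood at 7.70 ± 1.22 in EpCAM+ libraries and at 8.60 ± 0.559 in EpCAM- libraries (SD, 3 libraries each) and did not pass (0.90, adjusted p = 0.264), but did without EpCAM+ replicate 2, at 1.57 (adjusted p = 0.0253). The cartilage genes Matn3, Hapln1, Snorc, Ucma and Cnmd were below the filter, with group means no higher than 2.65.

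Col27a1 (chromosome 4, 63214004 to 63334991, plus strand) had the highest mean level per length of the members in EpCAM+ cells. It had 11.38, 11.65 and 12.15 in EpCAM+ and 9.34, 11.48 and 10.98 in EpCAM- replicates 1, 2 and 3, so that EpCAM- replicate 2 stood above EpCAM+ replicate 1 and the groups overlapped. Its difference of -1.13 ± 0.52 (SE) did not pass (adjusted p = 0.124), with a 95% interval from -2.37 to 0.11. Without EpCAM- replicate 2 it was -1.57 and passed (adjusted p = 0.0485), and without EpCAM- replicate 1 it was -0.50 (adjusted p = 0.163). Over all alternatives its adjusted p lay between 0.0439 and 0.303. Col24a1, the remaining fibrillar collagen gene of mammals and closest in kind to Col27a1, went from 3.67 ± 0.612 to 7.54 ± 1.08 (SD, 3 libraries each), a rise of 3.87 ± 0.57 (SE, adjusted p = 0.00164).

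Levels of different genes were compared after dividing the back-transformed value by the length of the longest annotated transcript in kilobases (kb). In EpCAM- cells the mean log2 level per kb was 12.92 for Col3a1, 11.85 for Col1a1, 11.77 for Col1a2, 10.77 for Col5a1, 10.26 for Col5a3 and 10.05 for Col5a2. It was 7.67 for Col27a1, 7.30 for Col11a1, 6.53 for Col2a1 and 2.88 for Col11a2. Neighbours in this order overlapped in their library ranges except Col5a2 above Col27a1 and Col2a1 above Col11a2. Col3a1 ranked 177 of 15747 genes by this measure in EpCAM- cells, Col1a1 404 and Col1a2 431.

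In EpCAM+ cells the order began with Col27a1 at 8.80, followed by Col1a1 at 7.58, Col3a1 at 7.32, Col5a3 at 7.26 and Col1a2 at 7.12. Col11a2 at 5.74, Col5a1 at 5.58, Col5a2 at 5.46, Col11a1 at 2.36 and Col2a1 at 1.91 came next. Only Col5a2 and Col11a1 were apart here, and all other neighbours overlapped, with EpCAM+ replicate 1 widening the ranges of the type I and III genes. Col27a1 ranked 4093 of 15747 and Col2a1 15194. With all annotated exons in place of the longest transcript, the order was the same except that Col5a3 passed Col3a1 and Col5a1 passed Col11a2 in EpCAM+ cells and Col5a1 passed Col1a2 in EpCAM- cells.

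**Figure D3:**
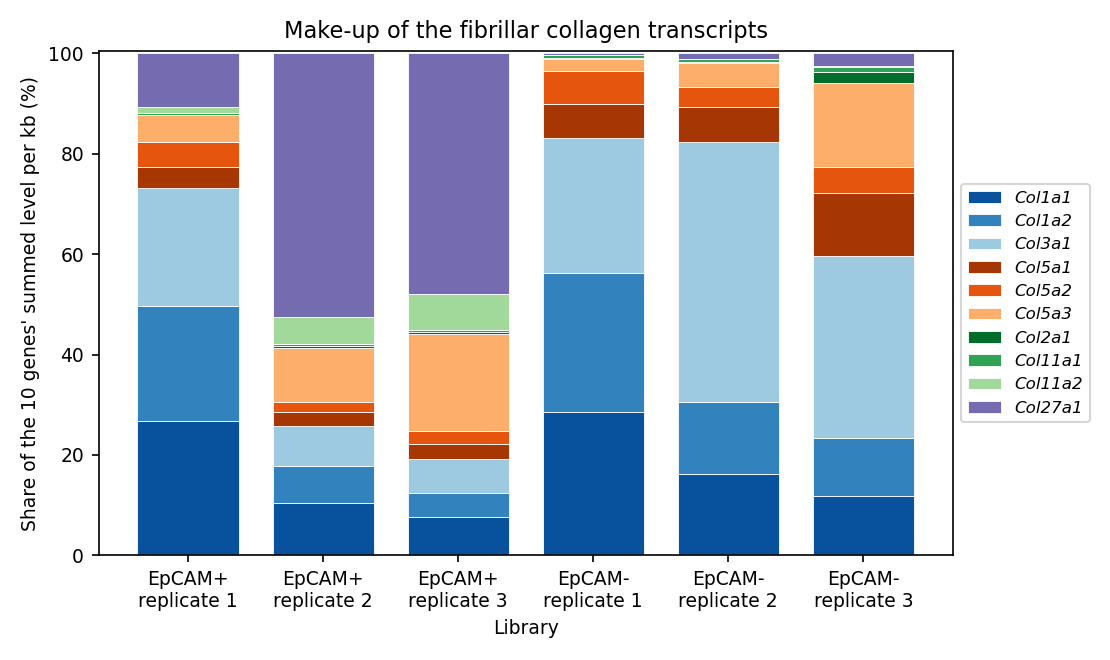
Share of each gene in the summed back-transformed level per kb of the 10 fibrillar collagen genes (vertical axis, percent) in each library (horizontal axis). Col27a1 takes 52.5% and 47.9% in EpCAM+ replicates 2 and 3, 10.8% in EpCAM+ replicate 1 and at most 2.56% in an EpCAM- library.

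The make-up of the fibrillar collagen RNA differed between the groups and within them. Per kb, Col27a1 held 10.8%, 52.5% and 47.9% of the 10 genes' sum in EpCAM+ replicates 1, 2 and 3, against 0.328%, 1.09% and 2.56% in EpCAM- replicates 1, 2 and 3. Col3a1 held 23.6%, 7.89% and 6.69% in EpCAM+ and 27.0%, 51.8% and 36.4% in EpCAM- replicates 1, 2 and 3. In EpCAM+ replicate 1, the shares of Col1a1 (26.8%), Col1a2 (22.8%) and Col3a1 (23.6%) were near those of EpCAM- replicate 1 (28.5%, 27.7% and 27.0%). Without length correction, the 10 genes took 0.0747%, 0.0200% and 0.0322% of each library's back-transformed total in EpCAM+ replicates 1, 2 and 3. In EpCAM- replicates 1, 2 and 3 they took 0.570%, 0.756% and 0.247%. The lowest EpCAM- library thus exceeded the highest EpCAM+ library.

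The balance between chains was taken as the log2 difference in level per kb between 2 genes of the same library, for 5 pairs. An exact two-sided permutation test of 3 libraries against 3 can give no p below 0.1, so none of these differences could pass. Col1a1 exceeded Col1a2, its partner in the type I trimer, by 0.23, 0.48 and 0.66 in EpCAM+ and by 0.04, 0.17 and 0.04 in EpCAM- replicates 1, 2 and 3. The groups did not overlap, with EpCAM- lower by 0.37 (exact permutation p = 0.1, adjusted over the 5 pairs 0.25). Type I trimers usually hold more of the Col1a1 chain than of the Col1a2 chain. By the longest transcript, these RNA levels were nearly equal in EpCAM- cells. With all annotated exons in its place, the EpCAM- means were 11.70 for Col1a1 and 10.55 for Col1a2. Balances within a group thus depend on the length used, while differences between groups do not.

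Col3a1 relative to Col1a1 was -0.18, -0.40 and -0.19 in EpCAM+ and -0.08, 1.68 and 1.63 in EpCAM- replicates 1, 2 and 3. EpCAM- replicate 1 was thus close to the EpCAM+ libraries, and the difference of 1.33 (exact permutation p = 0.1, adjusted 0.25) was 1.91 without it. Col5a1 relative to Col5a2 was -0.19, 0.38 and 0.19 in EpCAM+ and 0.04, 0.87 and 1.27 in EpCAM- replicates 1, 2 and 3, with overlap (difference 0.60, exact permutation p = 0.3, adjusted 0.375). That difference was 0.94 without EpCAM- replicate 1 and 0.33 without EpCAM- replicate 3.

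Col5a3 relative to Col5a1 was 0.34, 2.01 and 2.69 in EpCAM+ and -1.45, -0.53 and 0.43 in EpCAM- replicates 1, 2 and 3. The lowest EpCAM+ and the highest EpCAM- library overlapped (difference -2.20, exact permutation p = 0.2, adjusted 0.333). Without EpCAM+ replicate 1 and EpCAM- replicate 3 the difference was -3.34. Those libraries lay nearest the other group in this balance too, so the larger difference follows from leaving them out. Col11a1 stayed below Col5a1 by similar amounts in both groups, at -3.58, -2.58 and -3.51 in EpCAM+ and -3.32, -3.52 and -3.58 in EpCAM- replicates 1, 2 and 3. Its difference of -0.25 (exact permutation p = 0.7, adjusted 0.7) turned to 0.07 without EpCAM+ replicate 2.

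**Figure D4:**
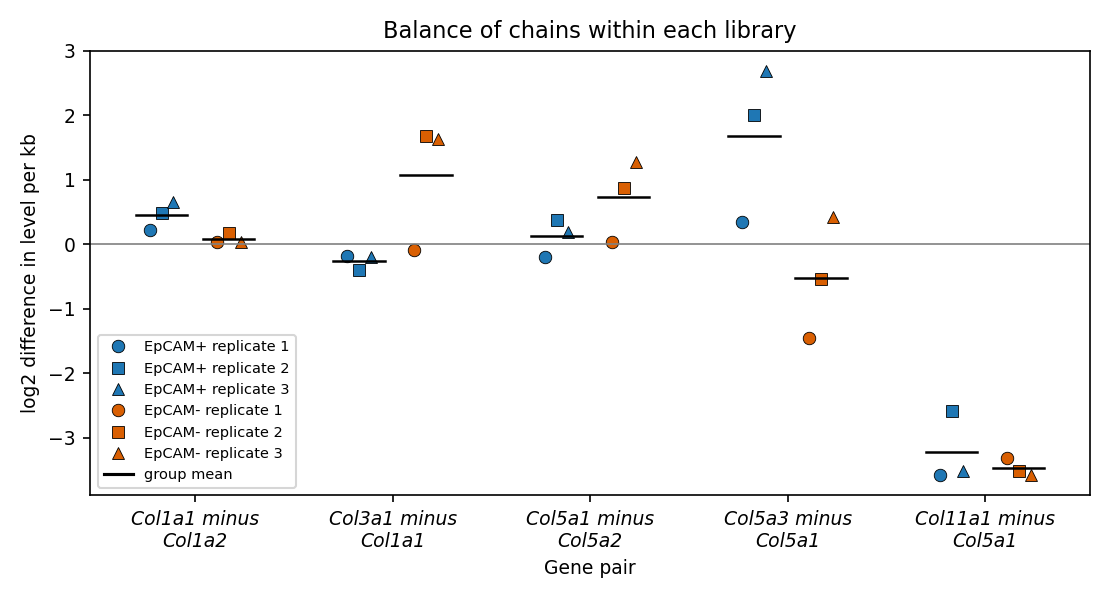
Log2 difference in level per kb between the genes of 5 pairs (horizontal axis) in each library (vertical axis), with EpCAM+ in blue, EpCAM- in orange and black bars for group means. The groups are apart for Col1a1 minus Col1a2 and for Col3a1 minus Col1a1, where EpCAM- replicate 1 lies at -0.08 beside the EpCAM+ libraries.

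Members were also compared by profile, as the root-mean-square difference between the log2 levels of 2 genes over the 6 libraries after each gene was centred on its own mean. The nearest members were Col1a1 and Col1a2 (0.23), followed by Col5a1 and Col11a1 (0.36), Col1a1 and Col5a2 (0.45) and Col1a2 and Col5a2 (0.49). Col3a1 and its chromosomal neighbour Col5a2 were not among these, Col3a1 being nearer to Col5a1 (0.59). The farthest pair was Col3a1 and Col11a2 (4.50).

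Of the tested genes that are no member, those nearest to the mean profile of Col1a1, Col1a2 and Col3a1 were Thy1 (0.25), Mmp2 (0.42), Dcn (0.44), Mrc2 (0.53) and Cd248 (0.54). Thy1, a surface glycoprotein of fibroblasts and other cells, stood at 8.50, 4.48 and 4.90 in EpCAM+ and 11.75, 11.91 and 9.92 in EpCAM- replicates 1, 2 and 3. Its EpCAM+ replicate 1 and EpCAM- replicate 3 were displaced in the same way as those of the type I and III genes. That likeness follows from the choice of Thy1 by its profile. Mmp2 is a gelatinase, Dcn the fibril-binding proteoglycan decorin, Mrc2 an uptake receptor for collagen and Cd248 a surface protein of fibroblasts and pericytes.

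Fibroblast markers moved with the rising collagens. Of 13 markers, with no collagen among them, 12 were tested, 9 rose, 0 fell and 3 did not pass, with a median log2 fold change of 3.69. By share, 75% rose and 0% fell, beside 20.3% and 23.1% of all tested genes. Averaged over the tested markers, the log2 level was 6.33, 4.56 and 4.87 in EpCAM+ and 9.08, 9.33 and 7.72 in EpCAM- replicates 1, 2 and 3. Their summed share of the back-transformed total lay between 0.00153% and 0.00606% in EpCAM+ and between 0.0252% and 0.0783% in EpCAM- libraries. Thy1 (5.24 ± 1.09, SE), Dcn (4.56 ± 0.88, SE), Dpt (4.09 ± 0.96, SE) and Fbln1, from 7.61 to 11.60, rose most, while Clec3b, a marker of resting fibroblasts, was too low to test, with means of 3.17 and 3.14, and was named after its values were seen. Dpt did not pass without EpCAM+ replicate 3 (adjusted p = 0.0526). Its EpCAM+ mean was only 3.06, so that it entered the test through its EpCAM- level. Without EpCAM+ replicate 1 and EpCAM- replicate 3, 11 of the markers rose. Those libraries were chosen for lying nearest the other group in the type I and III genes, so the larger number supports nothing. The part of these markers in the collagen result was not tested.

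Markers of other cells did not follow the collagens as a whole. Of 10 tested pericyte and stellate markers, 3 rose, namely Cd248 (4.36), Pdgfrb (4.13) and Cspg4 (2.53), 2 fell, namely Rgs5 (-1.56) and Notch3 (-1.18), and 5 did not pass, with Acta2 at 1.69 (adjusted p = 0.249). The share that passed, 50%, is near the 43.4% of all tested genes. By direction, 30% rose and 20% fell, beside 20.3% and 23.1% of all tested genes. Notch3 and Acta2 were named after their values were seen. The median log2 fold change of the list was 1.38. With the replicate number as a block 5 rose, and 4 rose after quantile normalisation and without EpCAM- replicate 3. Without EpCAM+ replicate 1 and EpCAM- replicate 3, libraries chosen by their collagen levels, 5 rose and 1 fell, and that larger number supports nothing. Rgs5 lost its call with array weights and on leaving out any of EpCAM+ replicates 2 and 3 and EpCAM- replicates 1 and 2. The number that fell was 0 without EpCAM+ replicate 3 and 1 when any other library was left out. Macrophage markers were highest in EpCAM+ replicate 1, the EpCAM+ library with the most type I and III collagen RNA. Averaged over the list, the log2 level was 8.75, 6.54 and 7.38 in EpCAM+ and 5.40, 5.64 and 4.83 in EpCAM- replicates 1, 2 and 3. Of the 10 macrophage markers, 9 fell (90%, against 23.1% of all tested genes). Among them were the complement genes C1qa (-3.23), C1qb (-3.16) and C1qc (-3.07) and Lyz2 (-2.90), which encodes lysozyme. Only 5 macrophage markers fell without EpCAM+ replicate 3 or without EpCAM- replicate 3. Of 4 tested endothelial markers, Kdr rose from 5.06 to 6.26 (adjusted p = 0.0485) and 3 did not pass. The share that rose, 25%, is near the 20.3% of all tested genes. Kdr lost its call without the filter, with the filter at 50 and on leaving out any of EpCAM+ replicates 1 and 3 and EpCAM- replicates 2 and 3. The Schwann cell marker S100b fell by 2.17, a call lost when EpCAM+ replicate 2 or 3 was left out. The part of these cells in the collagen levels was not tested.

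All 10 epithelial markers fell, which the sort selects for, where 23.1% of all tested genes fell. Epcam, whose protein was sorted on, stood at 14.95 ± 0.096 in EpCAM+ libraries and at 7.96 ± 0.643 in EpCAM- libraries (SD, 3 libraries each), which differ by -7.00 ± 0.30 (SE). The epithelial mean level was 14.34, 14.35 and 14.30 in EpCAM+ replicates 1, 2 and 3. The high collagen levels of EpCAM+ replicate 1 thus stood beside an epithelial level like that of the other EpCAM+ libraries. Whether other cells were present in that library was not tested. Krt7 (-6.85), Cldn3 (-6.82) and Cldn4 (-6.73) fell most after Epcam, and Krt8, at 13.81 in EpCAM- libraries, was the most abundant marker of the list.

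Of 18 tested genes that fold and modify procollagen, 13 rose, 2 fell and 3 did not pass, with a median log2 fold change of 1.66. These make 72.2% rising and 11.1% falling, beside 20.3% and 23.1% of all tested genes. The lysyl hydroxylase Plod2 went from 8.97 ± 0.308 to 12.38 ± 0.295 (SD, 3 libraries each), a rise of 3.41 ± 0.20 (SE). The prolyl hydroxylase subunits P4ha3 (3.02 ± 0.25, SE) and P4ha1 (2.20 ± 0.32, SE) and the chaperone Fkbp10 (2.36 ± 0.17, SE) rose with it. The collagen chaperone Serpinh1 rose by 1.45. P4hb, which encodes the shared subunit of the prolyl hydroxylases and also acts on other secreted proteins, was at 14.55 and 14.89 (0.33, adjusted p = 0.0885). The collagen galactosyltransferase Colgalt1 fell by 1.00, and Tmem38b, a channel of the endoplasmic reticulum, fell by 0.56. Serpinh1, P4hb, Colgalt1 and Tmem38b were chosen after their values were seen. The number that fell was 1 after quantile normalisation and on leaving out any of EpCAM+ replicates 2 and 3 and EpCAM- replicates 1 and 3.

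Of 11 tested export genes, 5 rose, 1 fell and 5 did not pass, with a median of 0.27. The share that passed was 54.5%, not far from the 43.4% of all tested genes. By direction, 45.5% rose and 9.09% fell, beside 20.3% and 23.1% of all tested genes. The coat proteins Sec23a (1.25 ± 0.10, SE) and Sec24d (0.90 ± 0.14, SE), both needed for secretion of large collagen cargo, and the transcription factor Creb3l2 (0.84 ± 0.20, SE) rose, and Mia2 fell by 0.65. Mia3, the receptor that loads procollagen into carriers, was at 10.83 and 11.10 (0.27, adjusted p = 0.154) and was chosen after its value was seen. Without EpCAM+ replicate 1, 3 export genes rose and Creb3l2 was no longer among them (log2 fold change 0.73). Without EpCAM- replicate 1 or 3, without EpCAM+ replicate 1 and EpCAM- replicate 3 together, with array weights and with the replicate number as a block, 2 export genes fell.

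Most genes of propeptide cleavage and every lysyl oxidase rose, where 20.3% of all tested genes did. Of 8 tested cleavage genes, 6 rose (75%), 1 fell (12.5%, against 23.1% of all tested genes) and 1 did not pass, with a median of 1.49. The N-propeptidases Adamts14 (3.64 ± 0.36, SE), Adamts2 (3.24 ± 0.55, SE) and Adamts3 (1.70 ± 0.30, SE) rose. Pcolce, the enhancer of C-propeptide cleavage, went from 10.16 ± 0.0326 to 13.30 ± 0.0204 (SD, 3 libraries each), a rise of 3.14 ± 0.08 (SE), so that its libraries lay much closer together than those of the collagens. Furin, a general proprotein convertase, was the gene that fell (-0.78). It was named after its value was seen, and none fell without EpCAM+ replicate 1 and EpCAM- replicate 3. All 5 lysyl oxidases, which start the cross-links, rose, namely Lox (3.93 ± 0.35, SE), Loxl2 (3.80 ± 0.49, SE), Loxl3 (3.25 ± 0.29, SE), Loxl4 (2.16 ± 0.15, SE) and Loxl1 (2.16 ± 0.57, SE), the last named after its value was seen. Only 4 of them passed on leaving out any of EpCAM+ replicates 2 and 3 and EpCAM- replicates 1 and 2.

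Partners on the fibril surface rose more often than they fell. Of 18 tested genes, 10 rose, 3 fell and 5 did not pass, with a median of 1.75. That is 55.6% rising and 16.7% falling, beside 20.3% and 23.1% of all tested genes. Dpt and, named after their values were seen, Aspn and Podn had EpCAM+ means of only 3.06, 3.17 and 2.58. They entered the test through their EpCAM- levels, so their rise is not independent of the filter. With the filter at 50, 8 genes of the list rose and 2 fell. The matricellular gene Thbs2 (5.44 ± 0.68, SE), Dcn (4.56 ± 0.88, SE), Dpt (4.09 ± 0.96, SE) and the collagen-binding Sparc (3.81 ± 0.43, SE) rose. Those that fell were Col9a3 (-2.99), a chain of the type IX collagen that decorates cartilage fibrils, Col14a1 (-2.03) and the cartilage matrix gene Comp (-1.89), named after their values were seen. Among the other collagens, 12 of 21 rose, none fell and 9 did not pass, with Col15a1 at 5.56 ± 0.60 (SE), Col6a3 at 4.50 ± 0.95 (SE) and Col8a1 at 3.74 ± 0.44 (SE). The median of that list was 1.62, and 57.1% of its tested genes rose, beside 20.3% of all tested genes. Without EpCAM- replicate 3, 1 of its genes fell.

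**Figure D5:**
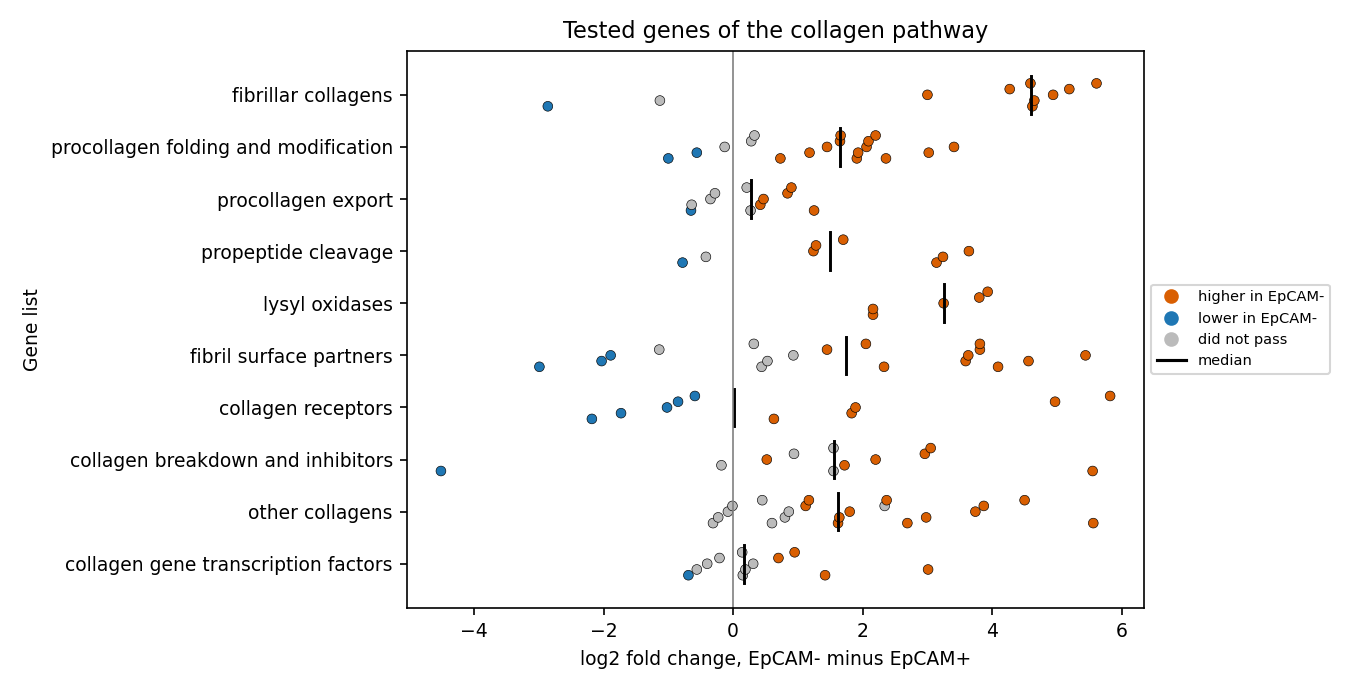
Log2 fold change, EpCAM- minus EpCAM+ (horizontal axis), of each tested gene in the collagen lists (vertical axis), in orange where it rose, blue where it fell and grey where it did not pass, with black bars for medians. The median was 4.61 for the fibrillar collagens, 3.25 for the lysyl oxidases and 0.02 for the receptors.

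Every tested collagen receptor changed, and the list divided evenly. Of 10 tested, 5 rose and 5 fell (50% each, beside 20.3% and 23.1% of all tested genes), with a median of 0.02. The receptor kinase Ddr2, which binds fibrillar collagen, rose by 5.82 ± 0.51 (SE), the uptake receptor Mrc2 by 4.97 ± 0.94 (SE) and the integrin chain Itga11 by 1.89 ± 0.34 (SE). Itga1 fell by 2.18 ± 0.29 (SE). Named after their values were seen, Itga2 (-1.73), the collagen-binding kinase Ddr1 (-0.59), the type III collagen receptor Adgrg1 (-0.85) and the leukocyte receptor Lair1 (-1.02) also fell. Without EpCAM+ replicate 1 or 3, 3 receptors fell. Itga11, at a mean of 2.94 in EpCAM+, entered the test through its EpCAM- level. Lair1, at a mean of 2.99 in EpCAM-, entered it through its EpCAM+ level. The calls of Itga11 and Lair1 are thus not independent of the filter. With the filter at 50, 4 receptors rose and 4 fell.

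Of 11 tested genes of collagen breakdown and its inhibitors, 6 rose, 1 fell and 4 did not pass, with a median of 1.55. In shares, 54.5% rose and 9.09% fell, beside 20.3% and 23.1% of all tested genes. Mmp2 (5.55 ± 0.91, SE), the membrane protease Mmp16 (3.05 ± 0.26, SE) and the inhibitor Timp1 (2.96 ± 0.16, SE) rose, and Mmp15 fell by 4.51 ± 0.31 (SE). The inhibitors Timp2 (2.20) and Timp3 (1.72) and the protease Mmp14 (0.52) also rose, and the proteases Mmp9, Ctsk and Fap did not pass. These genes were named after their values were seen. The shares thus mix proteases with inhibitors and are not shares of breakdown genes alone. The collagenase Mmp13, at 7.93 and 7.75 (adjusted p = 0.816), was chosen after its value was seen. The collagenase genes Mmp1a and Mmp8 were below the filter.

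Of 12 tested transcription factors known to act on collagen genes, 4 rose, 1 fell and 7 did not pass. The share that passed, 41.7%, is about the 43.4% of all tested genes, so the list as a whole did not stand out by that count. By direction, 33.3% rose and 8.33% fell, beside 20.3% and 23.1% of all tested genes. Sox5, a partner of Sox9 in the control of Col2a1, rose by 3.01 ± 0.35 (SE). Ets1 rose by 1.42 ± 0.11 (SE), Runx2 by 0.95 ± 0.28 (SE) and Sox9 by 0.70 ± 0.22 (SE). Runx2 and Sox9 lost their calls on leaving out any of EpCAM+ replicates 1 and 3 and EpCAM- replicates 2 and 3, which left 2 rising factors in each case. Sox9 also lost its call after quantile normalisation (adjusted p = 0.0522). The CCAAT-binding subunits Nfya (0.19, adjusted p = 0.191) and Nfyc (0.14, adjusted p = 0.288) did not pass and Nfyb fell by 0.69. These subunits were named after their values were seen.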

How the data were processed

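The authors deposited log2 values per gene, normalised between libraries, as the values themselves show. Which transform made them was not given in the sources used here. DESeq2 1.24.0, RSEM, STAR 2.5.2 and the build GRCm38 are named, without role or order, per the submitters' processing notes. Sequencing depth is therefore unknown, and no detection limit is given.

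Symbols, coordinates and transcript lengths came from GENCODE M21 by Ensembl identifier (25831 of 25978 matched). Genes whose back-transformed values averaged 10 or more entered the test, on the deposited log2 values with limma 3.58.1 in R 4.3.3 (trended prior variance, no covariate, two-sided, Benjamini-Hochberg over 15783 genes, threshold 0.05). In simulated data for this comparison with 15783 genes, 50 genes were changed at each of 0.5, 1, 2 and 4 log2 units. The procedure recovered 6%, 48%, 78% and 92% of them, and 7.44% of its calls were false. A far larger share of genes, 43.4%, passed in the real data, so these rates need not hold there. Chain balances were tested by exact permutation (scipy 1.17.1).

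Members and lists were chosen with earlier results of these data known. Of 202 listed symbols, 5 had no match. Named were all members, up to 4 called genes per list by size of change, Col24a1, Epcam, the most abundant gene of each marker list and the 5 genes nearest in profile. Further genes, marked as such or named as below the filter, were chosen after their values were seen. Alternatives were pseudocounts of 1 and 5, no filter, a filter at 50, quantile and upper quartile scaling, a replicate block, array weights and left-out libraries. An allele shared by both groups and 1 marker gene are not reported here.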

Additional observations from a re-analysis of the deposited data

How the results depend on the processing

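In all 15 alternatives the members kept their directions, and Col2a1, Col3a1, Col5a1, Col5a2, Col5a3, Col11a1 and Col11a2 kept their calls. Between 6 and 8 members rose when 1 library was left out, 6 of them without EpCAM+ replicate 3, and 8 rose in every other alternative. With 1 library left out, between 1 and 2 members fell, 2 without EpCAM- replicate 2, when Col27a1 passed. With the replicate number as a block, 2 members fell for the same reason (Col27a1 adjusted p = 0.0439), and 7090 genes passed in place of 6850. The labels do not say whether same-numbered libraries belong together, and the values do not settle it. Deviations from the group means correlated at 0.41, 0.0438 and 0.165 for same-numbered libraries 1, 2 and 3. EpCAM+ replicate 1 correlated at -0.146 and -0.337 with EpCAM- replicates 2 and 3, but EpCAM+ replicate 2 was closer to EpCAM- replicate 3 (0.23). Without EpCAM+ replicate 1 and EpCAM- replicate 3 together, 4365 genes passed. The balance of Col11a1 against Col5a1 ranged from -0.43 to 0.07 with 1 library left out, changing sign without EpCAM+ replicate 2, and the other 4 balances kept theirs. Over the other 9 gene lists, 80 genes passed, between 64 and 83 under the alternatives. Quantile normalisation moved the median log2 fold change of all genes by 0.126 and the log2 fold change of Col5a3, the smallest rise, was at least 2.58 in every alternative. Depth is unknown, so low levels such as those of Col2a1 in EpCAM+ cells cannot be given a counting error.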
